A study of Rattus norvegicus with 6 samples.

Results

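Messenger RNA levels of splicing factors were examined in cultured rat cells in which Mt2, a gene for a zinc-binding and copper-binding metallothionein, had been targeted with a small interfering RNA. The members were all rows of the count files whose symbols begin with Srsf and a number, with Hnrnp, or with Sf3a or Sf3b and a number. This gave 38 of 18237 genes, namely 10 SR genes, 19 hnRNP genes and 9 SF3 genes, and all 38 passed the filter on low counts. The cells are labelled NRVM, usually read as neonatal rat ventricular myocytes; according to the growth protocol they came from myocardium of embryos. They were kept in DMEM with fetal bovine serum and antibiotics and received either a control siRNA (siNT, 3 libraries) or an siRNA against Mt2 (siMt2, 3 libraries). The sources used here do not give strain, age, siRNA sequence or time after transfection. A protocol text shared by both groups also names dexamethasone, isobutylmethylxanthine and insulin, without saying whether these cells received them.

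Splicing removes introns from pre-mRNA on the spliceosome, a machine assembled from small nuclear ribonucleoproteins (snRNPs). SR proteins carry RNA recognition motifs and a domain rich in arginine and serine, and mostly help the spliceosome to recognise exons, whereas hnRNP proteins coat nascent transcripts and often oppose exon inclusion. The SF3a and SF3b complexes are parts of the U2 snRNP, which recognises the branch point of the intron. Many SR and hnRNP genes carry conserved exons whose inclusion sends the transcript to nonsense-mediated decay, by which these proteins limit their own amounts. In heart muscle, splicing factors govern the switch between fetal and adult isoforms of contractile and calcium-handling proteins. The counts here are per gene and do not separate isoforms.

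Library totals ranged from 2859759 counts (siMt2 replicate 3) to 6817777 counts (siMt2 replicate 1), so that 3 counts equalled between 0.440 and 1.05 CPM by library total. Levels are given in CPM, counts scaled to the library total times its TMM factor, which corrects for differences in RNA composition. CPM is not corrected for gene length, so levels are compared within a gene and not between genes. No label states that replicates were separate cultures, and p-values therefore reflect library-to-library spread alone, possibly technical. The targeted transcript, Mt2a, read 90.7, 169.9 and 93.3 CPM under siNT, against 70.7, 87.3 and 142 CPM in the libraries labelled siMt2. The groups overlapped (exact two-sided permutation p = 0.5, with 0.1 the smallest possible), so the groups are named by their labels throughout. Of 8 cardiomyocyte markers in the counts, 1 passed the filter (Tnnt2, 1201 counts), and it was higher in siMt2 (log2 fold change 1.01). Myh6, a defining gene of heart muscle, had 9 counts over all libraries. Apart from Tnnt2, the labelled cell type was close to absent by its markers. The list summed to between 29.3 and 32.2 CPM in siNT and between 51.3 and 63.7 CPM in siMt2. Of 8 fibroblast markers tested, 6 rose and 0 fell. The list summed to between 7601 and 7755 CPM in siNT and between 9884 and 13857 CPM in siMt2. Col1a1 held 189029 of the list's 297604 counts, while Pdgfra, Dcn and Lum had 2, 50 and 51 counts over all libraries. Replicates of 3 of the 8 scattered, by a coefficient of variation above 0.3 beyond counting error in either group. Of 5 smooth muscle markers, 4 rose and 1 fell (2315 to 2354 CPM against 4084 to 4175 CPM). The endothelial list rested on 1 tested gene, Eng, and the leukocyte list on Cd14, both lower in siMt2. Markers of cycling cells (Mki67, Top2a, Ccnb1, Cdk1, Aurkb and Birc5) summed to between 195 and 206 CPM in siNT and between 687 and 722 CPM in siMt2, and 6 of 6 rose. The part of these markers in the splicing factor values was not tested. In bulk libraries a change in the mix of cells and a change of RNA per cell cannot be told apart.

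The families moved in different directions. Among SR genes, 8 of 10 were higher and 1 was lower under the siMt2 label. Among hnRNP genes, 9 of 19 rose and 6 fell. Among SF3 genes, 0 of 9 rose and 7 fell. In all, 31 of 38 members passed edgeR's quasi-likelihood test at an adjusted p of 0.05 over all genes tested, beside 50.9% of the 11726 genes tested; 25.8% of these genes were higher and 25.1% lower. Abundant genes are called more readily, and of the 4536 genes with a mean of at least 50 CPM, 64.6% were called, 27.7% higher and 36.9% lower. Of the 34 members at that level, 16 rose and 12 fell. The median log2 fold change (siMt2 over siNT) was 0.36 for SR genes, 0.05 for hnRNP genes and -0.39 for SF3 genes, against 4.90e-04 over all genes tested. The libraries of both groups did not overlap for 28 of 38 members, beside 57.6% of all genes tested. Changes beyond 0.5 on the log2 scale were found in 14 members, where 27.9% of all genes tested were called with such a change.

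**Figure D1:**
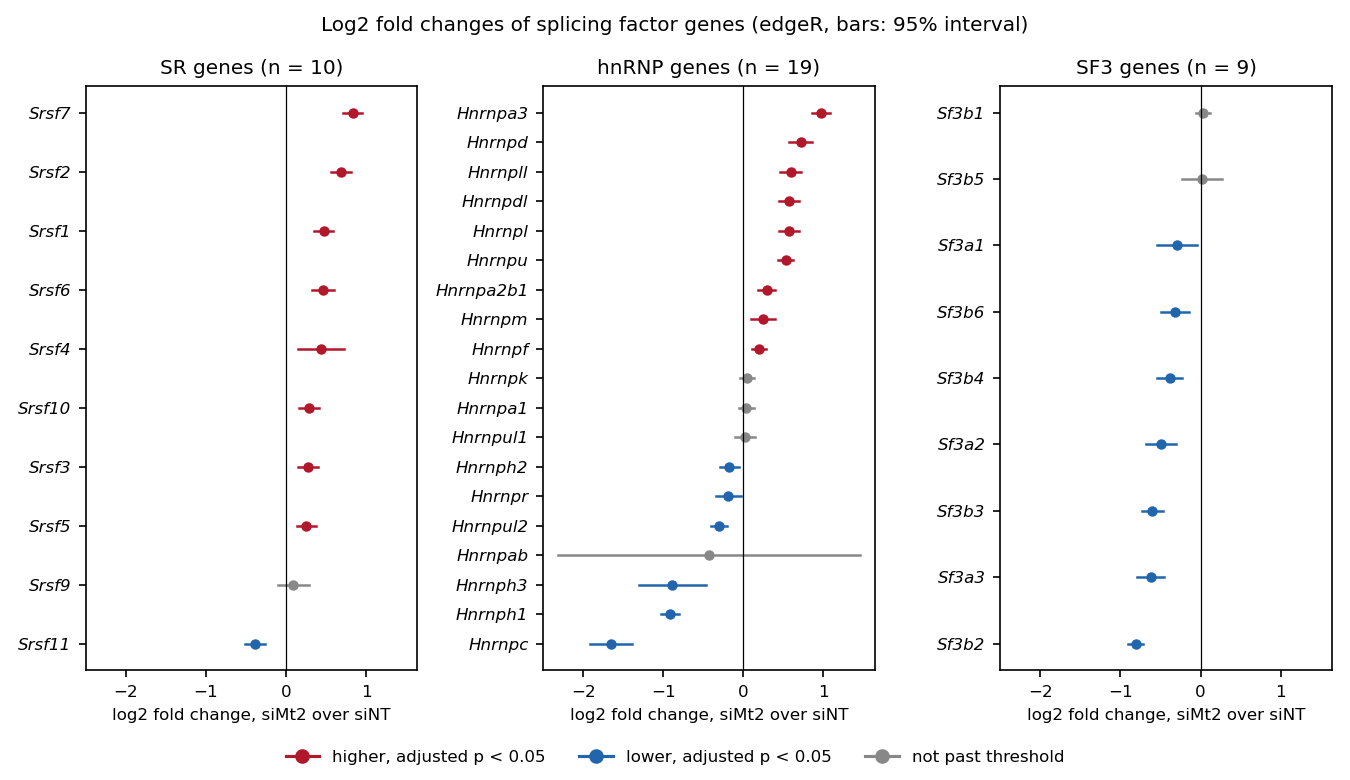
Log2 fold change of each member (siMt2 over siNT, horizontal axis) with its 95% interval from edgeR, by family; red genes were higher and blue genes lower at an adjusted p of 0.05, grey genes did not pass. SR genes lie mostly right of zero, with Srsf11 at -0.39, and 7 of 9 SF3 genes lie left of it; the wide bar is Hnrnpab.

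Each family was also summed as a share of the library total. SR genes took 0.119%, 0.127% and 0.126% of counts under siNT and 0.162%, 0.163% and 0.165% under siMt2. The hnRNP genes took 0.554%, 0.556% and 0.559% in siNT and 0.640%, 0.634% and 0.665% in siMt2. SF3 genes took 0.171%, 0.169% and 0.173% in siNT and 0.135%, 0.133% and 0.132% in siMt2. For each family all 3 libraries of one group lay on the same side of all 3 of the other. The ratios of the group means were 1.32 for SR, 1.16 for hnRNP and 0.780 for SF3 genes, and these sums are dominated by the genes with the most counts. Without its most counted gene, the ratio was 1.30 for SR (Srsf1), 1.18 for hnRNP (Hnrnpk) and 0.675 for SF3 genes (Sf3b1). Hnrnpa3 made up a mean of 8.67% of hnRNP counts in siNT and 14.7% in siMt2, the largest gain of any hnRNP gene. The hnRNP ratio without Hnrnpa3 was not computed. The higher hnRNP sum therefore leans on this gene and is not a rise across the family, where 9 of 19 genes rose and 6 fell.

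**Figure D2:**
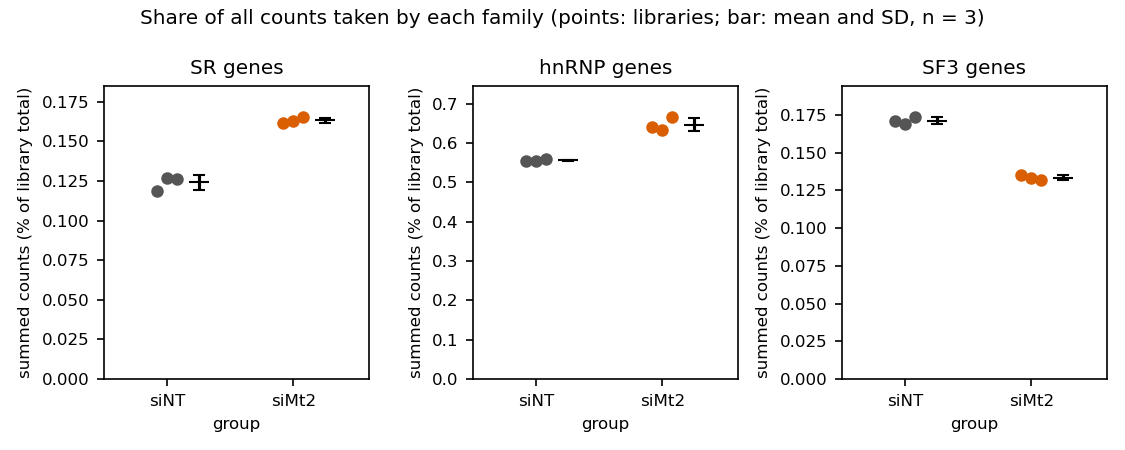
Summed counts of each family as a percentage of the library total (vertical axis) in the 3 siNT and 3 siMt2 libraries (points), with mean and SD. The SR and hnRNP shares are higher in siMt2 and the SF3 share is lower, with no overlap between groups.

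Promoter sequences are shown for the SR and hnRNP members with the largest rise and the largest fall, to set members that moved in opposite directions side by side. They are the 250 bases before the annotated start, 5′ to 3′ on the gene's strand, from RefSeq (build GRCr8, which is not the rn6 build named for the counts), and 36 of 38 members were matched by symbol, all but Hnrnpll and Sf3b2. Capitals mark a match, on either strand, to any motif searched. The windows are chr6:20563802-20564051 on the plus strand (Srsf7, SR rise), chr2:249760259-249760508 on the minus strand (Srsf11, SR fall), chr3:80985684-80985933 on the plus strand (Hnrnpa3, hnRNP rise) and chr15:27282716-27282965 on the minus strand (Hnrnpc, hnRNP fall).
Srsf7: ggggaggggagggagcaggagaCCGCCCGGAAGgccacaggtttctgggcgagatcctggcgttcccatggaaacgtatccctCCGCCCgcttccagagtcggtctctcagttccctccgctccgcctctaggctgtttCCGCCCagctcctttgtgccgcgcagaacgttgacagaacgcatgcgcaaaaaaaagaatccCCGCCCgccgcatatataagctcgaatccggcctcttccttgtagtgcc
Srsf11: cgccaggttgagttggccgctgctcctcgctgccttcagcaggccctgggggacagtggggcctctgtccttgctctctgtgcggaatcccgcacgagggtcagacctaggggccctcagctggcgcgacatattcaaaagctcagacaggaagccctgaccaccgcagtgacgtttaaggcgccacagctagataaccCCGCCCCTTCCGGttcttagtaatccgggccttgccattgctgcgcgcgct
Hnrnpa3: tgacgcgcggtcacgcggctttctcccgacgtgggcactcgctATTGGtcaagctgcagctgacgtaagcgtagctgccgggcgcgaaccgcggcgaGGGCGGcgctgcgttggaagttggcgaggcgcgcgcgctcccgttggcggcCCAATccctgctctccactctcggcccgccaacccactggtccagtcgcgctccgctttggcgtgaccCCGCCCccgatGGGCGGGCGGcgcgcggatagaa
Hnrnpc: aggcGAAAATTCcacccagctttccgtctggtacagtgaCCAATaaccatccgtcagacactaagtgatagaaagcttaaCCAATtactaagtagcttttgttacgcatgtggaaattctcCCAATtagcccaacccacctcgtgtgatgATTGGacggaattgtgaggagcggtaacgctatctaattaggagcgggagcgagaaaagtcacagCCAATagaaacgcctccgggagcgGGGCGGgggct

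Of the motifs searched on both strands, the GC box GGGCGG was present in 25 of 36 member promoters, in 60.4% of the promoters of 8574 tested genes that were matched, and in 30.5% of all 33469 RefSeq promoters of that length. It stood in 12 of 16 members that rose, in 8 of 13 that fell and in 5 of 7 that did not pass. The CCAAT box was in 18 of 36 (36.3% of tested genes, 34.0% of all), that is in 10 of 16 that rose, 4 of 13 that fell and 4 of 7 that did not pass. Hnrnpc, the member with the deepest fall, had 5 CCAAT matches, and Hnrnpa3 had 2. The ETS letters CCGGAAG were in 9 of 36 (16.2% and 7.27%), the E-box CACGTG in 5 (8.46% and 5.59%), the TATA box TATAAA in 5 (5.99% and 12.9%) and the E2F letters TTCCCGCC in 4 (3.09% and 1.52%). The heat shock letters GAANNTTC were in 3 (4.82% and 7.23%), the NRF1 palindrome in 1 (1.92% and 0.762%), and both the CRE TGACGTCA (3.09% and 1.59%) and the YY1 letters AAGATGGC (2.40% and 1.63%) in 0. The E2F letters and the GC box can overlap. The median GC content of the windows was 61.2% for members, 60.4% for tested genes and 51.2% for all promoters. These matches describe letters and were not tested.

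The SR genes with the largest rises were Srsf7 and Srsf2. Srsf7, whose product also couples splicing to export of the mRNA, stood at 151, 166 and 164 CPM in siNT and at 273, 286 and 297 CPM in siMt2. Its mean went from 160.1 ± 8.08 to 286 ± 11.7 CPM (SD over 3 libraries, as for every ± that follows), and the log2 fold change was 0.83 (SE 0.055, edgeR adjusted p = 1.36e-10). Srsf2, a nuclear speckle component that binds exonic enhancers and is needed in the mouse heart, stood at 127, 136 and 134 CPM in siNT and at 202, 226 and 216 CPM in siMt2 (log2 fold change 0.69, SE 0.059, edgeR adjusted p = 5.80e-09). Every siMt2 library lay above every siNT library for both genes.

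Srsf1, among the first SR proteins purified as splicing factors and a regulator of the calcium kinase isoforms of the heart, rose as well. Its values were 189, 212 and 219 CPM in siNT and 292, 278 and 288 CPM in siMt2 (log2 fold change 0.47, SE 0.056). Srsf6, which belongs to the same subgroup as Srsf4 and Srsf5, went from 97.9, 114 and 109.7 CPM to 147, 148 and 150.4 CPM (0.47, SE 0.066). Neither gene overlapped between groups. Smaller rises were found for Srsf10, which can act as a splicing repressor (0.28, SE 0.060), for Srsf3, a small SR protein close to Srsf7 (0.27, SE 0.060), and for Srsf5 (0.25, SE 0.058), all without overlap of the groups.

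Srsf4, the least counted SR gene, passed with overlapping groups. It stood at 28.7, 22.9 and 24.4 CPM in siNT and at 37.1, 38.1 and 26.1 CPM in siMt2, with siMt2 replicate 3 below the highest siNT library (log2 fold change 0.44, SE 0.138, edgeR adjusted p = 0.0115). Its call was lost in 5 of 15 alternative analyses, namely DESeq2 (adjusted p = 0.0756) and edgeR without siNT replicate 2 (0.0689), siNT replicate 3 (0.0621), siMt2 replicate 1 (0.0906) or siMt2 replicate 2 (adjusted p = 0.0590). Srsf9, a close relative of Srsf1, did not pass: 51.5, 56.6 and 55.6 CPM in siNT and 57.5, 63.1 and 52.8 CPM in siMt2 (0.09, 95% interval -0.10 to 0.29, edgeR adjusted p = 0.439).

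Srsf11 was the only SR gene called lower. This member, whose protein contacts U2AF, stood at 160.4, 162 and 168 CPM in siNT and at 124, 123 and 129.9 CPM in siMt2 (log2 fold change -0.39, SE 0.057, edgeR adjusted p = 1.10e-05), with no overlap. The count ratio of Srsf2 to Srsf11 within a library, which does not depend on scaling, was 0.794, 0.841 and 0.799 in siNT and 1.64, 1.83 and 1.66 in siMt2. This pair, like those of the ratios given below, was chosen after the values were seen. As a share of all SR counts, Srsf11 went from 13.1% ± 0.389 to 7.69% ± 0.119, and Srsf7 from 12.8% ± 0.167 to 17.5% ± 0.438.

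**Figure D3:**
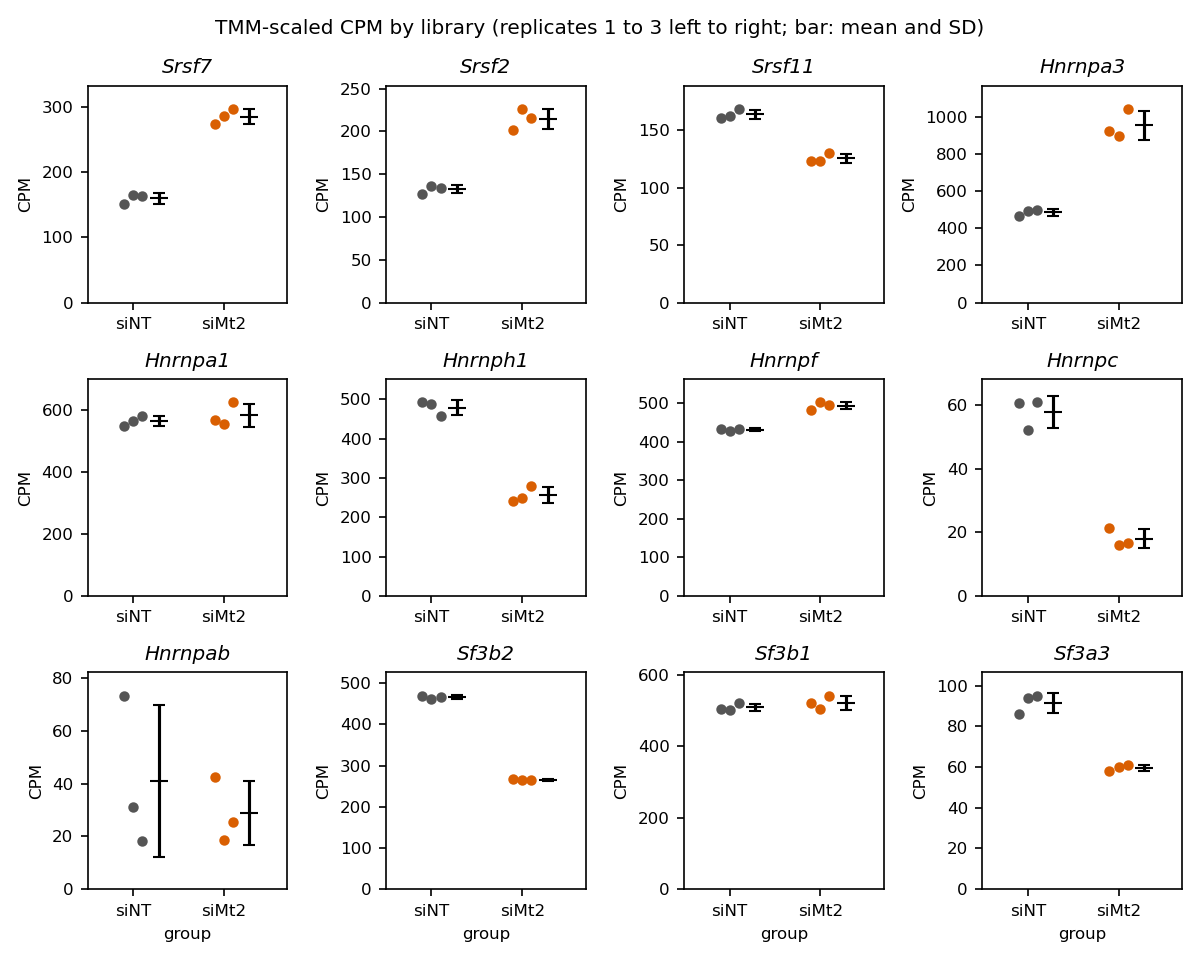
CPM after TMM scaling (vertical axis, from 0) of 12 members in the 3 siNT libraries (grey) and the 3 libraries labelled siMt2 (orange), with mean and SD. Srsf7, Srsf2, Hnrnpa3 and Hnrnpf are higher in siMt2, Srsf11, Hnrnph1, Hnrnpc, Sf3b2 and Sf3a3 are lower, Hnrnpa1 and Sf3b1 overlap, and the Hnrnpab libraries scatter in both groups.

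The hnRNP family was split, and the split ran through groups of close relatives. Within the A/B group, whose proteins bind UAG-containing motifs and commonly repress exons, Hnrnpa3 stood at 464, 492 and 499.8 CPM in siNT and at 925, 894 and 1039.9 CPM in siMt2. The mean went from 485 ± 18.9 to 953 ± 76.7 CPM, the largest rise of any member (log2 fold change 0.97, SE 0.051, edgeR adjusted p = 1.62e-11). Hnrnpa2b1 rose less, from 521 ± 15.7 to 639.5 ± 52.0 CPM (0.29, SE 0.051), without overlap. Hnrnpa1 stood at 549, 563 and 581 CPM in siNT and at 566, 555 and 623 CPM in siMt2 and did not pass (0.04, 95% interval -0.06 to 0.14, edgeR adjusted p = 0.503). The count ratio of Hnrnpa3 to Hnrnpa1 was 0.845, 0.874 and 0.861 under siNT and 1.64, 1.61 and 1.67 in those labelled siMt2. Genes of this group have processed copies elsewhere in the genome, and the sources used here do not say how reads shared with such copies were counted, so their levels are uncertain. The same limit holds for any other member whose reads also match elsewhere, such as the closely related Hnrnph1 and Hnrnph2.

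The F/H group, whose proteins bind runs of G, also divided. Hnrnph1 stood at 492, 488 and 457 CPM in siNT and at 241, 249 and 279 CPM in siMt2 (log2 fold change -0.91, SE 0.054, edgeR adjusted p = 2.59e-11). Hnrnph3 had few counts, at 13.2, 13.9 and 12.6 CPM in siNT and 7.74, 6.62 and 6.69 CPM in siMt2, and fell by a like amount (-0.89, SE 0.198, edgeR adjusted p = 9.00e-04). Both genes fell without overlap. Hnrnpf rose slightly, from 431 ± 2.87 to 493 ± 9.32 CPM (0.19, SE 0.041, edgeR adjusted p = 6.31e-04). Within libraries, the count ratio of Hnrnph1 to Hnrnpf was 1.14, 1.14 and 1.06 in siNT and 0.499, 0.496 and 0.565 in siMt2. Hnrnph2, whose coding sequence is very close to that of Hnrnph1, went from 165 ± 7.72 to 147 ± 3.85 CPM (-0.17, SE 0.058, edgeR adjusted p = 0.0161); its call was lost in 5 of 15 alternatives, among them edgeR without siNT replicate 3 (adjusted p = 0.104), siMt2 replicate 1 (0.0783) or siMt2 replicate 2 (0.0518).

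Hnrnpc showed the deepest fall of all members. Its product binds uridine tracts and packages nascent transcripts. It stood at 60.5, 52.1 and 60.8 CPM in siNT and at 21.3, 15.8 and 16.6 CPM in siMt2, with means of 57.8 ± 4.95 and 17.9 ± 2.98 CPM. The log2 fold change was -1.66 (SE 0.125, edgeR adjusted p = 9.68e-10), and the fall rests on counts of 335, 218 and 397 against 146, 67 and 47. The highest siMt2 library lay far below the lowest siNT library.

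Hnrnpd, Hnrnpdl, Hnrnpl and Hnrnpll were all higher, whereas Hnrnpab, grouped with Hnrnpd and Hnrnpdl, did not pass and is described with its scattering replicates. Hnrnpd, which binds AU-rich elements and speeds mRNA decay, stood at 75.5, 81 and 87.8 CPM in siNT and at 133, 135 and 135 CPM in siMt2 (log2 fold change 0.72, SE 0.069). Its relative Hnrnpdl stood at 117, 127 and 122 CPM in siNT and at 175, 182 and 189 CPM in siMt2 (0.57, SE 0.059). Hnrnpll, known for directing CD45 splicing in lymphocytes, went from 135, 130.5 and 145 CPM to 195, 209 and 219 CPM (0.59, SE 0.060). Hnrnpl, which binds CA repeats, went from 171 ± 8.66 to 253 ± 20.5 CPM (0.57, SE 0.061). All 4 passed the edgeR test, with Hnrnpl at the highest adjusted p (1.56e-07), and none overlapped between groups. The ratio of Hnrnpl to Hnrnpll overlapped between groups, at 1.25 ± 0.0668 in siNT and 1.22 ± 0.154 in siMt2.

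The U group gave all 3 outcomes. Hnrnpu, a nuclear matrix protein required for normal splicing in the mouse heart, had a mean of 592 ± 8.14 CPM in siNT and 855 ± 48.5 CPM in siMt2 and rose by a log2 fold change of 0.53 (SE 0.043, edgeR adjusted p = 3.55e-09). Hnrnpul2 fell, from 371, 381 and 384 CPM to 314, 314 and 291 CPM (-0.30, SE 0.047, edgeR adjusted p = 1.77e-05). Hnrnpul1 did not pass, at 202 ± 5.15 and 204 ± 16.6 CPM (0.02, 95% interval -0.10 to 0.14). The ratio of Hnrnpu to Hnrnpul2 was 1.56 ± 0.00703 in siNT and 2.80 ± 0.281 in siMt2.

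The remaining hnRNP genes had small fold changes or scattered. Hnrnpk, which binds C-rich sequence, did not pass at 808 ± 14.1 and 833 ± 29.2 CPM (log2 fold change 0.05, 95% interval -0.04 to 0.13). Hnrnpm went from 201 ± 12.7 to 239 ± 26.9 CPM (0.25, SE 0.070, edgeR adjusted p = 0.00784), a call lost in 2 of 15 alternatives (edgeR adjusted p = 0.106 with libraries thinned to the smallest total and 0.0672 without siNT replicate 2). Hnrnpr went from 145 ± 6.35 to 128 ± 16.1 CPM with overlapping groups (-0.19, SE 0.075, edgeR adjusted p = 0.0438), and 8 of 15 alternatives did not call it, among them edgeR without siNT replicate 1 (adjusted p = 0.118), siNT replicate 2 (0.119), siMt2 replicate 1 (0.0773) or siMt2 replicate 2 (0.303).

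Hnrnpab was the only member whose replicates scattered, by a coefficient of variation above 0.3 beyond counting error in either group, where 9.02% of all genes tested did. It was counted 406, 131 and 120 times under siNT and 291, 79 and 72 times under siMt2, and replicate 1 was the highest library of both groups. In CPM it stood at 73.3, 31.3 and 18.4 in siNT and at 42.5, 18.7 and 25.4 in siMt2. The variation among replicates was 70.0% of the mean in siNT and 42.6% in siMt2, while counting alone gives an error of 11.8% at its lowest count of 72. The log2 fold change was -0.43 with a 95% interval of -2.31 to 1.45 (edgeR adjusted p = 0.655), and without siNT replicate 1 it was 0.32 (edgeR adjusted p = 0.663). No direction can be given for this gene at this spread.

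**Figure D4:**
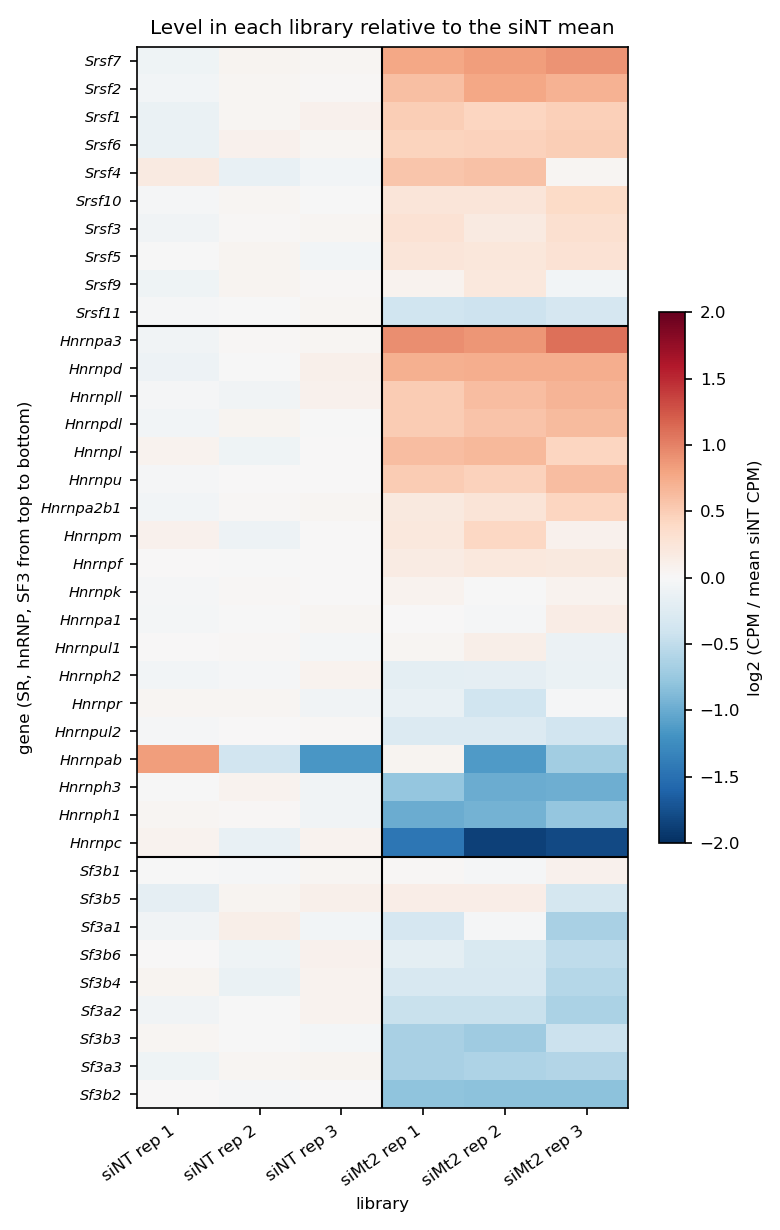
Level of each of the 38 members in each library as log2 of its CPM over the mean CPM of the siNT libraries (colour, red higher and blue lower), with SR, hnRNP and SF3 genes from top to bottom and libraries from left to right. The 3 siMt2 columns share their colours for most rows, while the Hnrnpab row varies within both groups.

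In the SF3 complexes, every member that passed was lower. All 3 SF3a genes fell. Sf3a3, a zinc finger subunit, stood at 85.8, 93.7 and 95 CPM in siNT and at 58.1, 59.8 and 60.9 CPM in siMt2 (log2 fold change -0.62, SE 0.079, edgeR adjusted p = 1.66e-06). Sf3a2 stood at 64.8, 67.6 and 71.3 CPM in siNT and at 49.8, 49.7 and 44.0 CPM in siMt2 (-0.50, SE 0.091, edgeR adjusted p = 1.28e-04). Both genes were separated by group. Sf3a1, the largest SF3a subunit, was at 64.8, 73.6 and 65.1 CPM in siNT and at 53.9, 66.7 and 43.3 CPM in siMt2, with siMt2 replicate 2 above 2 of the siNT libraries (-0.29, SE 0.117, edgeR adjusted p = 0.0473). It sat at the threshold, and 8 of 15 alternatives did not call it, among them edgeR without siNT replicate 1 (adjusted p = 0.0832), 2 (0.179) or 3 (0.0816) and without siMt2 replicate 1 (0.160) or 3 (0.110).

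Among SF3b genes, 4 of 6 fell. Sf3b2, which binds the SF3b subunit encoded by Sf3b4, stood at 470.0, 461 and 467 CPM in siNT and at 267, 265 and 264 CPM in siMt2. The SD was 4.58 and 1.80 CPM, and the log2 fold change was -0.81 (SE 0.044, edgeR adjusted p = 5.74e-12). Sf3b3, a propeller-shaped scaffold subunit, went from 258, 249.5 and 242 CPM to 159.6, 153 and 185 CPM (-0.60, SE 0.062, edgeR adjusted p = 1.03e-07). Sf3b4, which contacts the pre-mRNA upstream of the branch point, went from 129 ± 9.89 to 98.0 ± 9.23 CPM (-0.39, SE 0.075, edgeR adjusted p = 2.20e-04). Sf3b6, the subunit that lies at the branch point adenosine, went from 88.9 ± 5.28 to 70.7 ± 7.49 CPM (-0.31, SE 0.085, edgeR adjusted p = 0.00404). The groups did not overlap for these 4 genes.

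Sf3b1, the large subunit that clamps the branch helix and is recurrently mutated in blood cancers, did not pass. Its libraries read 506, 503 and 521 CPM in siNT and 521, 504 and 542 CPM in siMt2 (log2 fold change 0.03, 95% interval -0.06 to 0.12, edgeR adjusted p = 0.546). Sf3b5, a small subunit, was at 51.3 ± 5.37 and 51.1 ± 9.45 CPM (0.02, 95% interval -0.23 to 0.27). Phf5a, the SF3b subunit whose symbol falls outside the rule, did not pass either, at 58.3 ± 4.12 and 64.4 ± 5.22 CPM (0.13, 95% interval -0.07 to 0.32, edgeR adjusted p = 0.275). The count ratio of Sf3b2 to Sf3b1 within a library was 0.929, 0.917 and 0.896 in siNT and 0.514, 0.525 and 0.487 in siMt2, and that of Sf3b3 to Sf3b1 was 0.490 ± 0.0234 and 0.317 ± 0.0214. Sf3b1 accordingly made up 29.6% ± 0.214 of SF3 counts in siNT and 39.1% ± 1.48 in siMt2, and Sf3b2 27.1% ± 0.30 and 19.9% ± 0.0275. In all, 17 such within-library ratios were computed over the 3 families, chosen after the values were seen, and 14 did not overlap between groups. Several pairs set a called member against one that was not called or moved the other way. Their separation follows from those calls and is no further support. The share over other gene pairs was not computed.

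Other genes of the splicing pathway showed how the members sat in it. Of 78 core snRNP and spliceosome genes, 12 rose and 36 fell (median log2 fold change -0.19). Snrnp200, the helicase that unwinds the U4 and U6 RNAs, fell from 475 ± 2.3 to 202 ± 6.41 CPM (-1.23, SE 0.046), U2af2, which binds the polypyrimidine tract, from 305 ± 13.0 to 139 ± 11.9 CPM (-1.13, SE 0.060) and Ddx46, a helicase that remodels the U2 snRNP, from 236 ± 8.01 to 121 ± 7.74 CPM (-0.97, SE 0.059). Sf1, which binds the branch point before the U2 snRNP does, rose from 183 ± 7.61 to 269 ± 18.7 CPM (0.56, SE 0.057), as did the Sm protein gene Snrpd3 (0.69, SE 0.087) and Prpf40b (0.67, SE 0.104). The 36 falls are 46.2% of the list, beside 36.9% of genes with a mean of at least 50 CPM and 25.1% of all genes tested. The 12 rises are 15.4% of the list, beside 27.7% and 25.8% for the same 2 backgrounds.

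Among other splicing regulators, 12 of 53 rose (22.6%) and 19 fell (35.8%). Over all genes tested these shares were 25.8% and 25.1%, and over genes with a mean of at least 50 CPM they were 27.7% and 36.9%. The list was not limited to genes at that level. The cold-inducible RNA-binding protein genes had the smallest adjusted p among those that rose: Rbm3 went from 95.2, 109 and 97.3 CPM to 362, 336 and 368 CPM (log2 fold change 1.83, SE 0.060), and Cirbp from 19.0 ± 1.05 to 45.3 ± 2.33 CPM (1.24, SE 0.114). Tardbp, which encodes TDP-43, rose too (0.55, SE 0.056). Mbnl1, a regulator of fetal-to-adult splicing in heart and muscle, fell from 154 ± 3.67 to 71.7 ± 0.870 CPM (-1.11, SE 0.064), Ilf2 fell (-1.27, SE 0.079), and Tra2b, an SR-like activator, fell from 237 ± 4.56 to 155 ± 3.03 CPM (-0.61, SE 0.052). By comparison, 8 of the 10 SR genes were called higher.

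Of 15 kinases and cofactors around SR proteins, 0 rose, beside 25.8% of all genes tested and 27.7% of those with a mean of at least 50 CPM. In this list 7 fell (46.7%, beside 25.1% of all genes tested and 36.9% of those with a mean of at least 50 CPM). They included Cdk11b (log2 fold change -0.71, SE 0.079), the transcription kinase gene Cdk12 (-0.63, SE 0.077) and the spliceosomal kinase gene Prpf4b (-0.50, SE 0.064). Of 23 exon junction, export and nonsense-mediated decay genes, 5 rose (21.7%) and 6 fell (26.1%). Over all genes tested the shares were 25.8% and 25.1%, and over those with a mean of at least 50 CPM 27.7% and 36.9%. The junction complex genes Acin1 (0.32, SE 0.060), Eif4a3 (0.25, SE 0.081) and Casc3 (0.26, SE 0.096) rose. The call of Casc3 (edgeR adjusted p = 0.0303) was lost in 6 of 15 alternatives, with an adjusted p of up to 0.128 (DESeq2), among them without siNT replicate 1 or 2 and without siMt2 replicate 1 or 3. That of Eif4a3 (edgeR adjusted p = 0.0139) was lost with DESeq2 (0.0809) and without siNT replicate 2 (0.0856) or siMt2 replicate 2 (adjusted p = 0.0665). Without single libraries the count of rises in this list lay between 1 (without siNT replicate 2) and 5. The decay helicase gene Upf1 (-0.44, SE 0.071), the cap-binding gene Ncbp1 (-0.36, SE 0.073) and the decay endonuclease gene Smg6 (-0.58, SE 0.139) fell. No test set these lists or the families against each other.

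**Figure D5:**
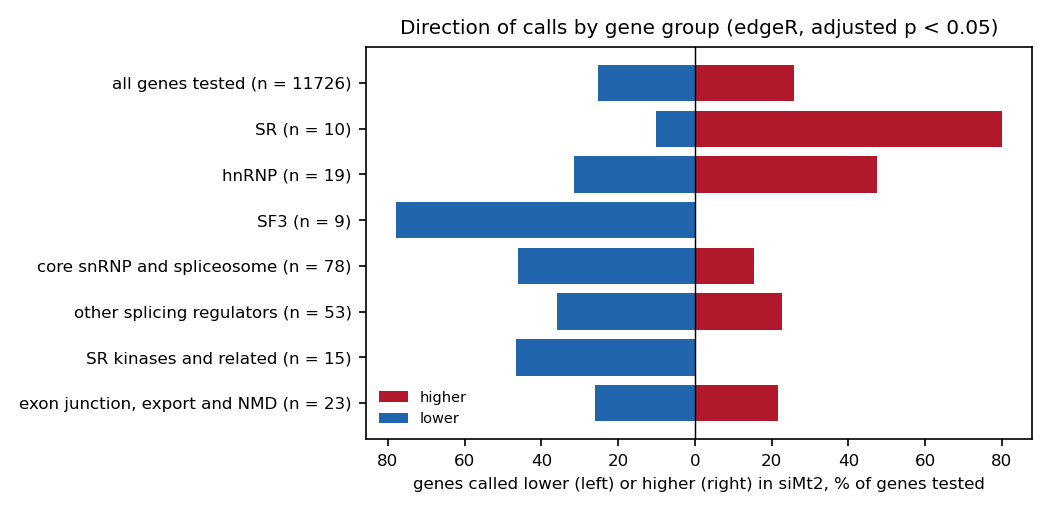
Percentage of tested genes called lower (blue, left) or higher (red, right) in libraries labelled siMt2, for all genes tested, the 3 families and 4 related gene lists, with the number of tested genes in brackets. Calls run mostly to the right for SR genes and only to the left for SF3 genes and the SR kinases, while all genes tested are close to even.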

How the data were processed

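RNA-seq was performed on 6 libraries of total RNA, made with a SMARTer mRNA-seq kit per the labels' protocols. Build rn6 and the tools HISAT2 2.2.1, Trimmomatic 0.40, featureCounts, DESeq2 and limma come from the submitters' processing notes, without their order; the sources used here give no strand or multi-mapping setting. The authors deposited raw whole-number counts per gene, 1 file a library, in 18237 rows; 25 rows with names turned into dates (0.260% of counts) stayed in the fit unnamed.

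Counts were fitted in R 4.3.3 with edgeR 4.0.16 (filterByExpr, minimum count 10, TMM factors 0.9952 to 1.008, robust quasi-likelihood test, two-sided, Benjamini-Hochberg over 11726 genes, threshold 0.05). CPM is TMM-scaled unless called a share. The procedure was tested on simulated counts with far fewer changed genes than were called here, so that test does not cover changes this widespread. The members and gene lists were chosen with earlier results of these data known. Named were all members, with library values for the 4 largest rises and 4 largest falls called in each family and, chosen after the values were seen, for Srsf4, Sf3a1 and several members that did not pass, and up to 3 genes per direction and list by smallest adjusted p; Phf5a was added after its value was seen. No library was a copy of another: within groups they differed by 1.57 to 2.38 times the counting expectation. The highest values, 2.27 and 2.38, set siMt2 replicate 3, the library with the fewest counts, against the other siMt2 libraries. This check cannot tell separate cultures from separate libraries of the same culture. Alternatives were DESeq2 1.42.0, limma-voom (limma 3.58.1), other scalings and filters, thinning, a replicate block and each library left out.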

Additional observations from a re-analysis of the deposited data

How the results depend on the processing

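Of the 31 members called, 26 kept their call and direction in all 15 alternatives (3 other scalings, no filter or a stricter one, a replicate block, DESeq2, limma-voom, libraries thinned to the smallest total, and each library left out in turn), and 0 reversed. All alternatives drew on the same 6 libraries. The share of all called genes that kept their call was not computed, so this count is not particular to the members. The 5 that lost it somewhere were Srsf4, Hnrnph2, Hnrnpm, Hnrnpr and Sf3a1; the cause was not tested. With 1 library left out in turn, SR genes called higher numbered between 7 and 8, hnRNP genes higher between 8 and 9 and lower between 4 and 6, and SF3 genes lower between 6 and 7. The log2 fold change of Mt2a lay between -0.56 and 0.052. Over all genes tested, 3162 were called higher and 3092 lower without siMt2 replicate 3, against 3026 and 2945 with all libraries. Leaving out any other library lowered both counts. The SR share of the library, 0.0391 percentage points higher in siMt2, was 0.0311 higher without Srsf1, a sum over fewer genes.

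The 5 exon junction, export and decay genes called higher became 3 with the replicate block, 1 with DESeq2, 2 with thinned libraries and between 1 and 5 with a library left out (1 without siNT replicate 2, 2 without siMt2 replicate 1 or siMt2 replicate 2); the cause was not tested. The replicate numbers share no stated pairing, and same-numbered libraries of both groups had correlations of deviations of -0.00182, -0.060 and 0.0234, so the block is only an alternative: with it 8 SR genes were higher, 9 hnRNP genes higher and 6 lower, and 7 SF3 genes lower, as in the fit without it, and not every library correlated best with its own number. Depth limits the precision of members with few counts: the smallest count in any library was 19 for Hnrnph3, 47 for Hnrnpc, 72 for Hnrnpab and 74 for Srsf4.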
